A study of Mus musculus with 20 samples.

Results

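The 10 genes described here encode chaperones and folding factors of the endoplasmic reticulum (ER) lumen: Hspa5, Hyou1, Dnajb11, Sdf2l1, Manf, Hsp90b1, Calr, Pdia4, Pdia6 and Creld2. They were chosen by name as ER folding genes with ER stress elements, the DNA motifs through which ATF6 is known to act, and the rule uses no value measured in these libraries, although earlier results of these data were known when it was made. All 10 were found among the 18754 genes listed in all 4 expression tables, and all 10 passed the filter on low values in both experiments. None passed the adjusted threshold when Atf6 was absent or when its inhibitor was injected, so they are called here by what they encode and not by the factor that drives them.

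ATF6 is a transmembrane sensor of the unfolded protein response. When unfolded protein builds up in the ER it moves to the Golgi, where the site-1 and site-2 proteases cut it, and the freed cytosolic part enters the nucleus and raises the transcription of folding genes together with NF-Y. The folding genes work as a machine: BiP, encoded by Hspa5, holds unfolded chains with the help of J-domain partners and nucleotide exchange factors, GRP94 and calreticulin take over particular clients, and the disulfide isomerases form and reshuffle disulfide bonds. Rod photoreceptors, the most numerous cells of the mouse retina, make large amounts of rhodopsin in the ER, and retinal vessels secrete basement membrane proteins through it.

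Messenger RNA was measured in 20 whole-retina libraries in 4 groups of 5, all from C57BL/6J mice of both sexes. In the oxygen-induced retinopathy (OIR) experiment, Atf6+/+ and Atf6-/- pups were kept in 75% oxygen from P7 to P12 and then in room air for 5 days, and retinas were taken at P17, when new vessel growth peaks. In the injection experiment, both eyes of wild-type mice were injected at P30 with 1 µL of saline with solvent or of 10 µM Ceapin-A7. Ceapin-A7 is a small molecule that keeps ATF6 in the ER. Retinas were taken 24 h after injection. The first experiment asked what loss of Atf6 does in the hypoxic retina and the second what blocking its activation does in the mature retina. The Atf6-/- mice carry a premature stop codon, described in the study's introduction as leaving them without Atf6 protein, so the loss was not limited to one cell type. The Atf6-/- and Atf6+/+ pups shared the oxygen treatment, the saline and Ceapin-A7 mice shared the injection, and no group of untreated retinas was analysed here. The labels call the control injection PBS and give a single solvent range for both injections, while the study's methods give the control more DMSO than the Ceapin-A7 solution, so the drug and the solvent cannot be told apart. Labels do not say whether the 5 libraries of a group came from separate animals, so p-values measure the spread between these libraries.

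Atf6 itself read 14.8, 16.1, 14.6, 14.7 and 14.6 FPKM (fragments scaled to transcript length and to the size of the library) in the Atf6+/+ OIR libraries and 15.6, 13.6, 16.8, 16.3 and 13.6 FPKM in the Atf6-/- OIR libraries. The groups overlapped, with a log2 fold change of 0.03 (95% confidence interval -0.12 to 0.19). A stop codon is not read by the RNA level of the whole gene, so this value does not check the genotypes, which rest on the labels. Rod markers summed to between 13100 and 20000 FPKM in the 20 libraries and none of the 6 was at 0, as in retina. Lens fibre markers, from a tissue removed at dissection, summed to 10.1 to 871 FPKM in the Atf6+/+ and 6.25 to 10.1 in the Atf6-/- OIR libraries, and to 12.1 to 5590 in the saline and 137 to 9930 in the Ceapin-A7 libraries. Of the 15 lens markers 2 were at 0 in every Atf6-/- library. Scaling factors lay between 0.946 and 1.04.

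The promoters of 8 of the 10 genes were matched in RefSeq (mouse build GRCm38.p6), and Hyou1 and Manf were not. Each window ran from 250 bases before to 50 bases after the annotated start and was searched on both strands for the ER stress element (ERSE), CCAAT, any 9 bases and CCACG, and for ERSE-II, ATTGG, any 1 base and CCACG. Of the 8 windows 6 held a match, against 51 of all 32851 windows in the table (0.155%). Since the genes were chosen as ones with ER stress elements, that count is a description of the choice. The 250 bases upstream are printed for the 5 genes with an ERSE, with the ERSE in capitals, and for Sdf2l1, the gene with the lowest fold change in the Atf6-/- retinas. Hspa5 (chr2:34771840-34772089, plus strand) has an ERSE near its start, Hsp90b1 (chr10:86705445-86705694, minus strand) has 2 that do not overlap, and Calr (chr8:84846932-84847181, minus strand) has 1 on the strand opposite to the gene. Pdia6 (chr12:17266339-17266588, plus strand) has 1 on its own strand and Creld2 (chr15:88819396-88819645, plus strand) has 1 on the opposite strand. Sdf2l1 (chr16:17132384-17132633, minus strand) and Pdia4 held neither run of letters in their windows, which says only that. Dnajb11 held an ERSE-II, ATTGGCCCACG, just after its annotated start.
Hspa5: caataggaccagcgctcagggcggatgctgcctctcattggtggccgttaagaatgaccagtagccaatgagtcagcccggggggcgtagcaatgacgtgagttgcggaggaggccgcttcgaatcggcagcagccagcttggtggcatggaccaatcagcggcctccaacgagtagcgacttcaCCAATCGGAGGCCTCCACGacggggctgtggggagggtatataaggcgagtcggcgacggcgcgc
Hsp90b1: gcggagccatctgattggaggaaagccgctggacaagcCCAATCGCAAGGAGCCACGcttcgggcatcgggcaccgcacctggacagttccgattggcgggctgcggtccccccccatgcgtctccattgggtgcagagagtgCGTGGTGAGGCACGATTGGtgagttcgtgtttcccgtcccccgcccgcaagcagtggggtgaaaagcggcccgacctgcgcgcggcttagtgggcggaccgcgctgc
Calr: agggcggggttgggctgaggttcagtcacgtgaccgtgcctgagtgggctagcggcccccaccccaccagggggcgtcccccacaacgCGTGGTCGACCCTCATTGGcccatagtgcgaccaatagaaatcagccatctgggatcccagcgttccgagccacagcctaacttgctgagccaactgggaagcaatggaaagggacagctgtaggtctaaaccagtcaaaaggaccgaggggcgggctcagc
Pdia6: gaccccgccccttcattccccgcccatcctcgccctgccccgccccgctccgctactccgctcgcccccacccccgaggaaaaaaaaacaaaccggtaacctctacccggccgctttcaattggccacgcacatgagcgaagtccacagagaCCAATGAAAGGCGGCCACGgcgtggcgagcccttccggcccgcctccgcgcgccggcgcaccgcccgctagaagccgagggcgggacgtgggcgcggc
Creld2: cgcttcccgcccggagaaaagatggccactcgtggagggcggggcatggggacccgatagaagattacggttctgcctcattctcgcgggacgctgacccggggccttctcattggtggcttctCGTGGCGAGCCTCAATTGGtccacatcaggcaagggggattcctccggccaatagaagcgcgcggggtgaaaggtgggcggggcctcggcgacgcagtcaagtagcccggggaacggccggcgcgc
Sdf2l1: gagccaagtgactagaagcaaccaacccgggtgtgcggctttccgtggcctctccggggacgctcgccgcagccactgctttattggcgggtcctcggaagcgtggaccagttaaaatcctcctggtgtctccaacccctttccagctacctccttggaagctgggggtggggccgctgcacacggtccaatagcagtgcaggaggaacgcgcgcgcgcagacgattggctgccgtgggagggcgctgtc

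**Figure D1:**
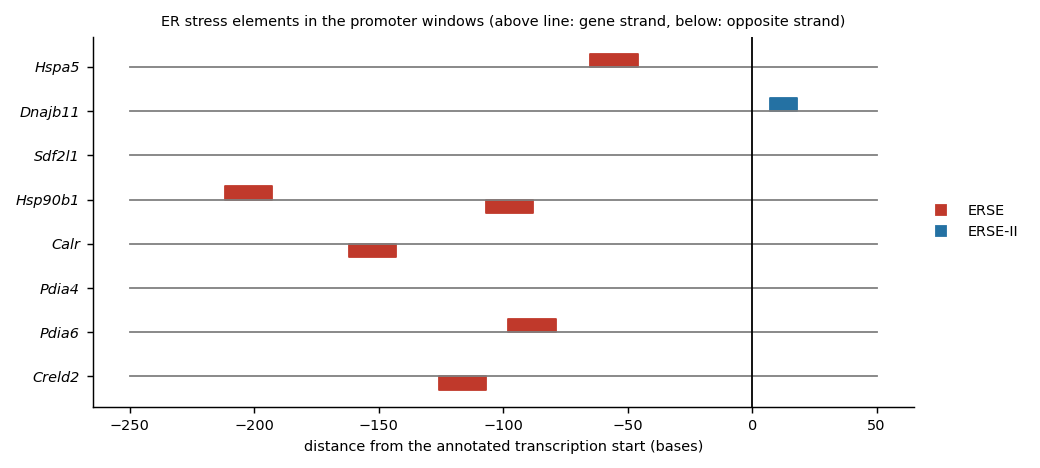
Positions of ERSE and ERSE-II matches in the promoter windows of the 8 genes found in RefSeq, with distance from the annotated start in bases on the horizontal axis and blocks above or below each line for the gene's own or the opposite strand. Hsp90b1 has 2 ERSE blocks, Hspa5, Calr, Pdia6 and Creld2 have 1 each, Dnajb11 has an ERSE-II after the start, and Sdf2l1 and Pdia4 have none.

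The 10 genes differed widely in level. On the FPKM scale, which is per transcript length and so allows genes to be set side by side, Calr was the most abundant and Sdf2l1 the least in each of the 4 groups. Calr averaged 319 ± 34.7 FPKM (SD, n = 5) and Sdf2l1 5.63 ± 1.22 in the Atf6+/+ OIR retinas. The ratio of the highest to the lowest mean was 56.7 in the Atf6+/+ OIR, 71.8 in the Atf6-/- OIR, 27.1 in the saline and 27.5 in the Ceapin-A7 retinas. The order Calr, Hsp90b1, Hspa5 and Manf headed the list in all 4 groups, and Hyou1, Creld2 and Sdf2l1 closed it. Only Pdia6, Pdia4 and Dnajb11 changed places between them. In the Atf6+/+ OIR libraries Pdia6 (49.0 ± 7.82 FPKM), Pdia4 (43.0 ± 5.15) and Dnajb11 (36.8 ± 3.80) had overlapping ranges, as did Hyou1 (23.7 ± 2.30) and Creld2 (20.1 ± 2.25). Bulk retina cannot tell fewer cells of a type from less RNA per cell, which holds for every difference below.

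**Figure D2:**
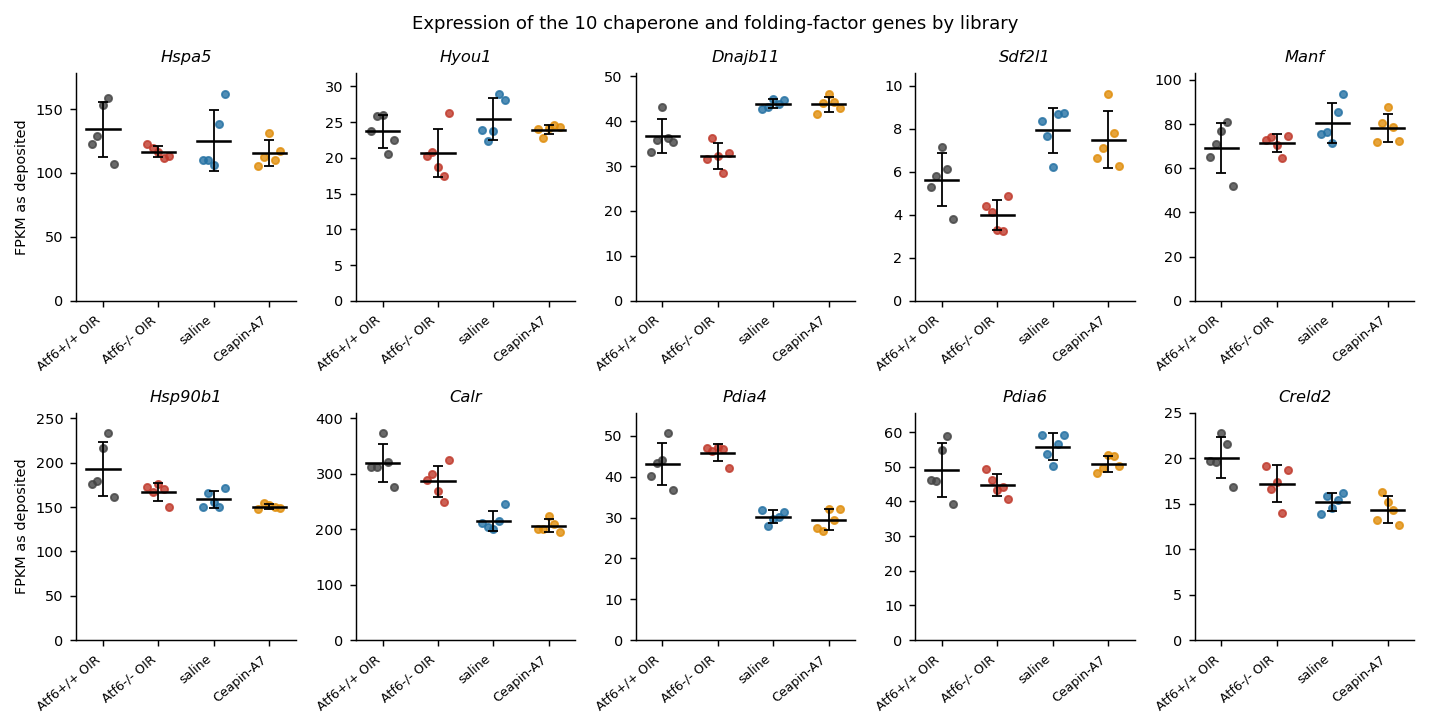
FPKM of each gene as deposited (vertical axis, linear, from 0) in the 5 libraries of each of the 4 groups, with bars at the mean and error bars of 1 SD. No gene separates the Atf6-/- from the Atf6+/+ OIR libraries or the Ceapin-A7 from the saline libraries, while Calr, Pdia4 and Creld2 lie higher in every Atf6+/+ OIR library than in every saline library.

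None of the 10 genes differed between Atf6-/- and Atf6+/+ OIR retinas beyond the spread between libraries once all genes were adjusted for. Of the 10 genes 8 had a log2 fold change below 0, from -0.10 for Pdia6 to -0.46 for Sdf2l1, and Manf and Pdia4 had one above 0. Their median was -0.17, against 0.0028 over all 15704 genes tested, of which 49.3% were below 0. None of the 10 passed an adjusted p of 0.05 in limma, where 0.0318% of all genes did. Without adjustment only Sdf2l1, with a lower level, had a p of 0.05 or less, where 12.7% of all genes passed in either direction and 5.83% were lower. No gene's groups were free of overlap after scaling between libraries, against 1.78% of all genes.

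Within the BiP machinery, Hspa5 read 123, 129, 153, 159 and 107 FPKM in the Atf6+/+ and 122, 119.6, 116, 112 and 114 FPKM in the Atf6-/- OIR libraries. All 5 knockout values fell inside the wild-type range, where replicates 3 and 4 were high and replicate 5 low, and the log2 fold change was -0.17 ± 0.09 (SE; adjusted p = 0.423, limma). Hyou1, the nucleotide exchange factor GRP170, read 23.7, 25.9, 26.0, 20.5 and 22.5 FPKM against 20.2, 20.8, 18.7, 17.4 and 26.3. In the deposited values 3 knockout libraries (2 after scaling) were below every wild-type library, and replicate 5 was above all of them. The log2 fold change was -0.19 ± 0.12 (adjusted p = 0.474). Without Atf6-/- replicate 5 it was -0.30.

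Dnajb11, the J-domain partner ERdj3, read 33.2, 35.9, 43.2, 36.3 and 35.4 FPKM in the Atf6+/+ and 31.5, 36.3, 32.1, 28.4 and 32.9 FPKM in the Atf6-/- libraries. In the deposited values 4 of the 5 knockout libraries were below every wild-type library, and 3 were after scaling. The log2 fold change of -0.17 (95% interval -0.34 to 0.0017) had an adjusted p of 0.394. Sdf2l1, which forms a complex with Dnajb11 in the ER lumen, read 5.30, 5.80, 7.13, 6.11 and 3.79 FPKM against 4.39, 4.13, 3.28, 3.26 and 4.85. Every knockout library was below the first 4 wild-type libraries, and only Atf6+/+ replicate 5 reached into the knockout range. Its fold was 0.728 (95% interval 0.568 to 0.932), a log2 fold change of -0.46 ± 0.16 with an unadjusted p of 0.016 and an adjusted p of 0.362. Leaving out single libraries moved it between -0.58 and -0.37. Manf, a small secreted protein that binds BiP, read 65.0, 70.9, 76.7, 80.9 and 51.8 FPKM in the Atf6+/+ and 72.6, 74.3, 70.4, 64.7 and 74.6 FPKM in the Atf6-/- libraries. Its log2 fold change of 0.08 ± 0.10 (adjusted p = 0.708) became -0.013 without Atf6+/+ replicate 5.

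The other chaperones lay in the same narrow band. Hsp90b1, the ER HSP90 known as GRP94, read 175, 179, 216, 233 and 161 FPKM in the Atf6+/+ and 172, 166, 176, 170.3 and 150.2 FPKM in the Atf6-/- libraries. The wild-type spread (30.2 FPKM SD) was wider than the difference of the means, and the log2 fold change was -0.18 (95% interval -0.36 to 0.0038; adjusted p = 0.396). Calr, the calcium-binding lectin chaperone of glycoproteins, read 311, 312, 373, 322 and 277 FPKM against 289, 299.5, 269, 249 and 324. Its groups overlapped broadly, at -0.14 ± 0.09 on the log2 scale (adjusted p = 0.495), and the value was -0.085 without Atf6+/+ replicate 3 or Atf6-/- replicate 4.

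The disulfide isomerases had fold changes of opposite sign. Pdia4, or ERp72, read 40.1, 43.3, 44.0, 50.7 and 36.8 FPKM in the Atf6+/+ and 47.0, 46.4, 47.3, 46.7 and 42.2 FPKM in the Atf6-/- libraries. In the deposited values 4 of the knockout libraries stood within 1 FPKM of one another and above 4 of the wild-type libraries. After scaling the knockout libraries ran from 44.6 to 47.5 FPKM. The log2 fold change was 0.12 (95% interval -0.03 to 0.26, adjusted p = 0.439), and 0.072 without Atf6+/+ replicate 5. Pdia6, or P5, read 46.1, 46.0, 54.9, 58.8 and 39.2 FPKM against 49.3, 46.2, 43.3, 44.2 and 40.8, with the knockout values inside the wild-type range and a log2 fold change of -0.10 ± 0.09 (adjusted p = 0.595). It was -0.045 without Atf6+/+ replicate 4 and -0.17 without Atf6+/+ replicate 5. Creld2, an ER-resident protein induced by ER stress, read 19.7, 19.6, 22.8, 21.5 and 16.8 FPKM against 19.2, 16.7, 17.4, 14.0 and 18.7. Atf6-/- replicate 4 was lowest and Atf6+/+ replicate 5 again the lowest of its group, and the log2 fold change was -0.21 (95% interval -0.43 to 0.01; adjusted p = 0.412), or -0.13 without Atf6-/- replicate 4.

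**Figure D3:**
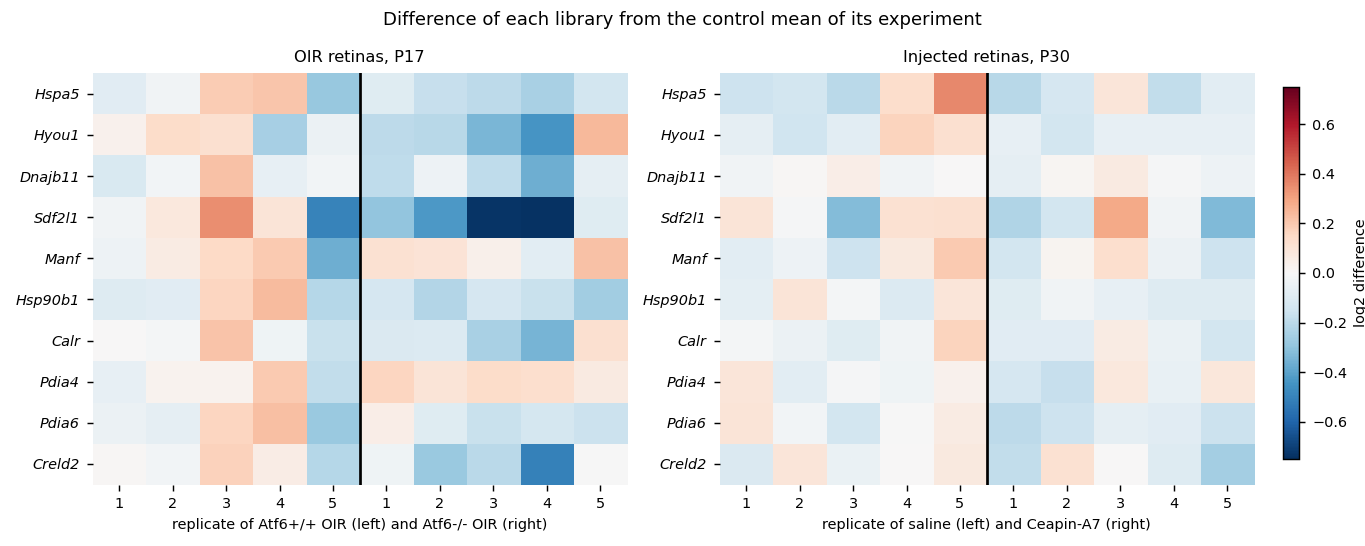
Log2 difference of each gene (rows) in each library (columns) from the control mean of its experiment, Atf6+/+ OIR on the left and saline on the right, in red where higher and blue where lower. Atf6+/+ replicate 5 is below the mean in all 10 genes and replicate 3 above in all 10, Sdf2l1 is lowest in Atf6-/- replicates 3 and 4, and Ceapin-A7 replicates 1 and 4 are below the saline mean in all 10.

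Single libraries set how many of the 10 genes came near the threshold. Atf6+/+ replicate 5 held the lowest value of its group for 8 of the 10 genes, and without it 4 genes reached an unadjusted p of 0.05 (Hspa5, Sdf2l1, Hsp90b1 and Creld2). Without Atf6-/- replicate 5, the highest of its group for 5 of the 10, the count was 5 (Hyou1, Dnajb11, Sdf2l1, Calr and Creld2). It was 3 without Atf6+/+ replicate 1 or replicate 4, and 2 without Atf6+/+ replicate 2 or Atf6-/- replicate 1 or 2. Sdf2l1 was in each of these sets, and none of the 10 passed the adjusted threshold in any of them. The share of all genes that passed without each library is not given here, so these counts describe the 10 genes alone. Weighting libraries by their fit called 2 of the 10, Hyou1 at -0.32 (adjusted p = 0.0308) and Sdf2l1 at -0.53 (adjusted p = 0.0463), where the same weights called 2772 genes in all. In TPM, 5 of the 10 reached an unadjusted p of 0.05 in limma, where 1840 of all 15704 genes did. The share of higher genes among all that did was 31.0% against 54.3% in the scaling used here.

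Atf6+/+ replicate 5 was also the library with the highest lens marker sum of its group, 871 FPKM. Mural cell markers summed to 92.4 to 138 FPKM in the Atf6+/+ and 77.1 to 94.4 FPKM in the Atf6-/- libraries, and all 5 had a log2 fold change below 0. Pigment epithelium markers summed to 18 to 106 FPKM against 65.8 to 292, with 8 of 9 above 0. Of 14 lens fibre markers tested 13 were below 0 (median -2.54), as were 6 of 7 endothelial and 5 of 6 microglia and macrophage markers. All 6 rod and all 5 cone markers were above 0, and 3 of 5 Muller glia and 3 of 6 ganglion cell markers were. No marker passed the adjusted threshold. Log2 fold changes followed transcript GC content across all genes (Spearman correlation -0.476), and the 10 transcripts range from 42.1% GC in Hsp90b1 to 56.7% in Sdf2l1. After a correction for GC the log2 fold change of Sdf2l1 was -0.36, against -0.46 without it, and that of Hsp90b1 was -0.28, against -0.18. With the correction 4 of the 10 reached an unadjusted p of 0.05 in limma, where 1612 of all 15704 genes did. None of the 10 reached the adjusted one. The part of these in the chaperone values was not tested.

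**Figure D4:**
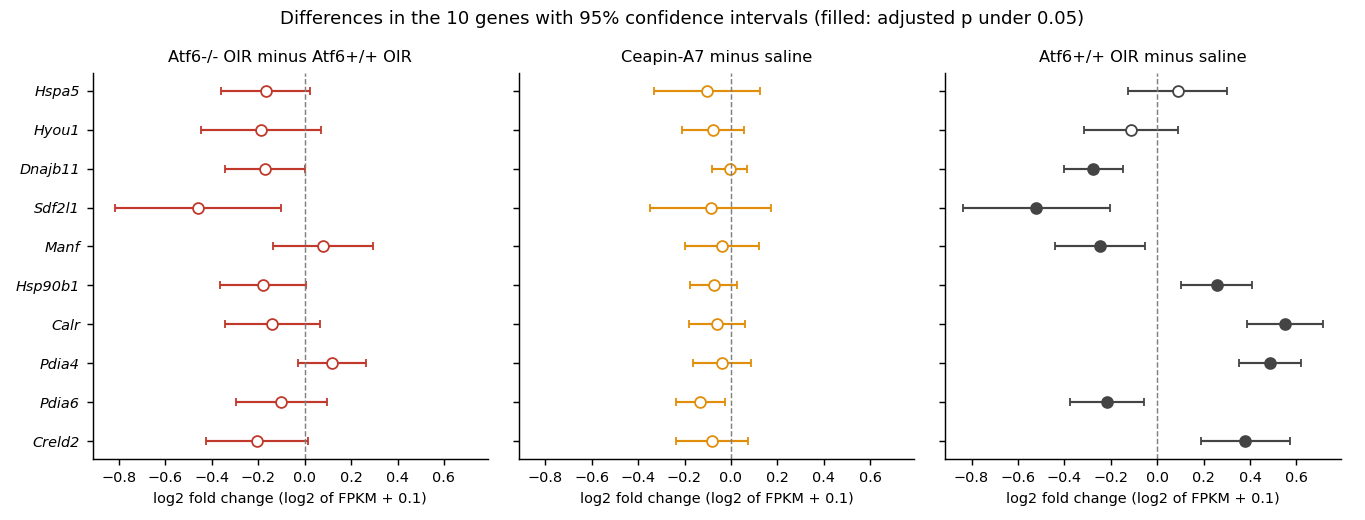
Log2 fold change of each gene (horizontal axis, on log2 of FPKM + 0.1) with its 95% confidence interval in 3 comparisons, filled where the adjusted p was under 0.05. Of the 10 genes 8 lie below 0 in the Atf6-/- panel and 10 in the Ceapin-A7 panel with no filled point, and 4 lie above and 4 below 0 as filled points in the Atf6+/+ OIR against saline panel.

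After Ceapin-A7 all 10 genes had means slightly below those after saline, and none differed beyond the spread between libraries once all genes were adjusted for. Log2 fold changes ran from -0.0058 for Dnajb11 to -0.13 for Pdia6, with a median of -0.076 against 0.00073 over all 15408 genes tested, of which 49.7% were below 0. None of the 10 passed an adjusted p of 0.05 in limma, and neither did any other gene (0%). Without adjustment only Pdia6, with a lower level, had a p of 0.05 or less, where 10.4% of all genes passed in either direction and 5.32% were lower. No gene's groups were free of overlap, against 1.47% of all genes. The 10 signs were the same under every other scaling, filter and pseudocount tried, and 2 of them turned when single libraries were left out.

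Pdia6 read 59.3, 53.8, 50.3, 56.6 and 59.2 FPKM after saline and 48.1, 49.7, 53.4, 53.2 and 50.1 FPKM after Ceapin-A7. All saline libraries but replicate 3 were above every Ceapin-A7 library and 3 Ceapin-A7 libraries were below every saline library. Its fold was 0.913 (95% interval 0.849 to 0.981; unadjusted p = 0.0177, adjusted p = 0.472). Hsp90b1 read 149.8, 166, 155, 150.1 and 172 FPKM after saline and 147, 154, 152, 149.9 and 149 FPKM after Ceapin-A7, a log2 fold change of -0.07 (95% interval -0.18 to 0.03). The Ceapin-A7 libraries were tightly grouped at the lower edge of the saline range.

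Hspa5 read 110.2, 109.9, 106, 138 and 162 FPKM after saline and 106, 113, 132, 109.9 and 117 FPKM after Ceapin-A7. Saline replicates 4 and 5 stood above the other 3, and the log2 fold change of -0.10 ± 0.11 (adjusted p = 0.718) was -0.012 without saline replicate 5. Manf read 75.4, 76.5, 71.3, 85.7 and 93.7 FPKM against 72.0, 80.5, 87.5, 78.5 and 72.2, with the same high saline libraries, and its -0.04 ± 0.07 turned to 0.0097 without saline replicate 5. Sdf2l1, the lowest gene in the knockout, read 8.37, 7.65, 6.21, 8.68 and 8.72 FPKM against 6.64, 7.09, 9.61, 7.81 and 6.25. Its Ceapin-A7 values reached from near the lowest saline value to above the highest, at -0.09 ± 0.12 on the log2 scale (adjusted p = 0.792). It was -0.18 without Ceapin-A7 replicate 3 and -0.027 without Ceapin-A7 replicate 5.

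Calr lay between 200.03 and 246 FPKM after saline and between 196 and 224 FPKM after Ceapin-A7 (log2 fold change -0.06; adjusted p = 0.683), and its fold change was -0.018 without saline replicate 5. Hyou1 lay between 22.4 and 28.9 against 22.8 and 24.5 FPKM (-0.08; adjusted p = 0.635), and Creld2 between 13.9 and 16.2 against 12.7 and 16.3 FPKM (-0.08; adjusted p = 0.663). For Pdia4, with 28.1 to 32.0 FPKM against 26.6 to 32.1, the log2 fold change was -0.04 (adjusted p = 0.814). Leaving out 1 library brought Hyou1 to -0.035 (saline replicate 4), Creld2 to -0.039 (Ceapin-A7 replicate 5) and Pdia4 to -0.0045 (Ceapin-A7 replicate 2). Dnajb11 averaged 43.9 ± 0.96 FPKM after saline and 43.7 ± 1.69 after Ceapin-A7, and its interval from -0.08 to 0.07 on the log2 scale was the narrowest of the 10. No lens fibre marker passed the adjusted threshold, and 15 of 15 had a log2 fold change above 0. Rod markers summed to 13100 to 20000 FPKM after saline and 18300 to 19500 after Ceapin-A7, and their part in the chaperone values was not tested.

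The effects of the knockout and of the inhibitor were then compared in a single limma fit of all 20 libraries. None of the 10 genes had a difference between the effects that passed an adjusted p of 0.05, where 0.032% of 15628 genes did, and without adjustment none did where 9.2% of all genes had a p of 0.05 or less. The intervals still allow sizeable differences. For Sdf2l1 the Atf6-/- effect was lower than the Ceapin-A7 effect by a log2 difference of -0.37 (95% interval -0.82 to 0.08; adjusted p = 0.602), and for Dnajb11 by -0.16 (-0.34 to 0.02; adjusted p = 0.573). Pdia4 differed the other way, by 0.16 (-0.03 to 0.35; adjusted p = 0.596). For Hspa5 the difference was -0.06, with an interval from -0.37 to 0.24. Genotype, oxygen, age and injection all differ between the experiments, so their shares in such a difference cannot be told apart.

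Between the control groups of the experiments 8 of the 10 genes were called, 4 higher and 4 lower. Against retinas of mice injected with saline at P30, Atf6+/+ OIR retinas at P17 had higher Calr, Pdia4, Creld2 and Hsp90b1. They had lower Sdf2l1, Dnajb11, Manf and Pdia6, while Hspa5 and Hyou1 did not pass the test. These 8 of 10 called genes are to be read against 59% of all 15628 genes called in limma, 29.7% higher and 29.3% lower. Age, oxygen and injection cannot be told apart in this comparison, and the groups come from separately deposited tables brought to a common scale by median of ratios.

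Calr, with the largest difference of the 10, averaged 319 FPKM in the OIR and 215 FPKM in the saline retinas, a fold of 1.46 (95% interval 1.31 to 1.64; adjusted p = 5.42e-06). Pdia4 was 1.4-fold higher (1.28 to 1.53; adjusted p = 2.08e-06), at 43.0 against 30.3 FPKM, and Creld2 1.3-fold (1.14 to 1.49; adjusted p = 0.0013), at 20.1 against 15.2 FPKM. In each of the 3 genes every OIR library was above every saline library. Hsp90b1 was 1.19-fold higher (adjusted p = 0.00504), with 4 of the 5 OIR libraries above the saline range. On the lower side, Sdf2l1 had a fold of 0.697 (0.560 to 0.868; adjusted p = 0.0059) and Dnajb11 of 0.826 (0.756 to 0.903; adjusted p = 0.000698). Only Dnajb11 among the lower genes was free of overlap after scaling, so that 4 of the 10 genes were, against 41.3% of all genes. Manf (0.843; adjusted p = 0.0277) and Pdia6 (0.861; adjusted p = 0.0207) lost the call when Atf6+/+ replicate 5 was left out, with adjusted p-values of 0.103 and 0.079. Pdia6 also lost it without saline replicate 1 (0.0502), and Manf without Atf6+/+ replicate 1 (0.0548), saline replicate 4 (0.0553) or saline replicate 5 (0.0831). Hspa5 was at 0.09 (adjusted p = 0.478) and Hyou1 at -0.11 (adjusted p = 0.334) on the log2 scale. Calls went both ways within the functional classes, as they did over all genes (29.7% higher and 29.3% lower). The isomerases Pdia4 and Pdia6 fell on opposite sides. Of the BiP machinery the partners Dnajb11, Sdf2l1 and Manf were lower, while Hspa5 and Hyou1 did not differ by the test. Markers of other cells differed in the same comparison. Mural markers summed to 92.4 to 138 FPKM in the Atf6+/+ OIR and 25.2 to 33.7 FPKM in the saline libraries (5 of 5 called higher), endothelial markers to 106 to 167 against 75 to 93.2 FPKM (5 of 7 called higher), and microglia and macrophage markers to 39.2 to 57.3 against 16 to 20.2 FPKM (5 of 6 called higher). Pigment epithelium markers summed to 18 to 106 against 119 to 241 FPKM (5 of 9 called lower), and lens fibre markers to 10.1 to 871 against 12.1 to 5590 FPKM, with 15 of 15 log2 fold changes below 0 and 1 called. Their part in the chaperone values was not tested.

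Within groups the 10 genes varied together from library to library. After each library was set against its own group mean, the correlation of each gene with the mean of the other 9 over the 20 libraries ran from 0.338 for Hyou1 and 0.404 for Pdia4 to 0.872 for Sdf2l1 and 0.933 for Manf. Of the 45 pairs 42 had a correlation above 0, with a median of 0.524. Sdf2l1 and Calr were the closest pair at 0.868, and Hsp90b1 and Hyou1 the farthest at -0.363. These values share the library, its depth and its cell makeup, and are given as a description. In the OIR libraries the pattern was carried by Atf6+/+ replicate 5 at the low end (mean deviation -0.24 on the log2 scale) and Atf6+/+ replicate 3 at the high end (0.18). In the injected libraries saline replicate 5 (0.13) and Ceapin-A7 replicate 3 (0.12) were highest and saline replicate 3 (-0.09) lowest. In the Atf6-/- libraries replicate 4 held the lowest value of 7 of the 10 genes.

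Among 12557 other genes with a mean of at least 1 FPKM in both experiments, those whose library pattern was most like the mean of the 10 were Rexo2 (r = 0.84), Xbp1 (0.802), Rit1 (0.80), Mknk1 (0.775) and Arfrp1 (0.773), over 20 libraries. The median over all 12557 was 0.00758 and the 99th percentile 0.594. Among the unfolded protein response and heat shock genes listed below, Hspa8 (0.748, rank 12) and Hsph1 (0.734, rank 13) came next after Xbp1. Both belong to the cytosolic heat shock list. The listed genes reached down to Ern1 (-0.448, rank 11951). Xbp1 encodes the transcription factor that the sensor IRE1 activates by splicing its messenger RNA. It read 50.9, 51.9, 55.2, 57.1 and 40.2 FPKM in the Atf6+/+ and 48.4, 44.8, 43.3, 40.1 and 44.8 FPKM in the Atf6-/- OIR libraries, with its low value in the same Atf6+/+ replicate 5. In the saline libraries it read 41.9, 45.4, 38.3, 54.1 and 66.5 FPKM, and in the Ceapin-A7 libraries 44.2, 42.2, 49.5, 42.6 and 43.4 FPKM. Its correlation with the 10 genes was 0.926 over the 10 OIR and 0.843 over the 10 injected libraries. The RNA of Atf6 did not share the pattern over the 20 libraries (-0.145, rank 8908). Its correlation was -0.339 over the 10 OIR and 0.393 over the 10 injected libraries. The level of Atf6 RNA does not read the cut that activates the protein, and the knockout is described as having no protein. Whole-gene Xbp1 values do not read its splicing, and Xbp1 is itself among the ATF6 target genes listed below. Which sensor, if any, lies behind the shared pattern was not tested.

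**Figure D5:**
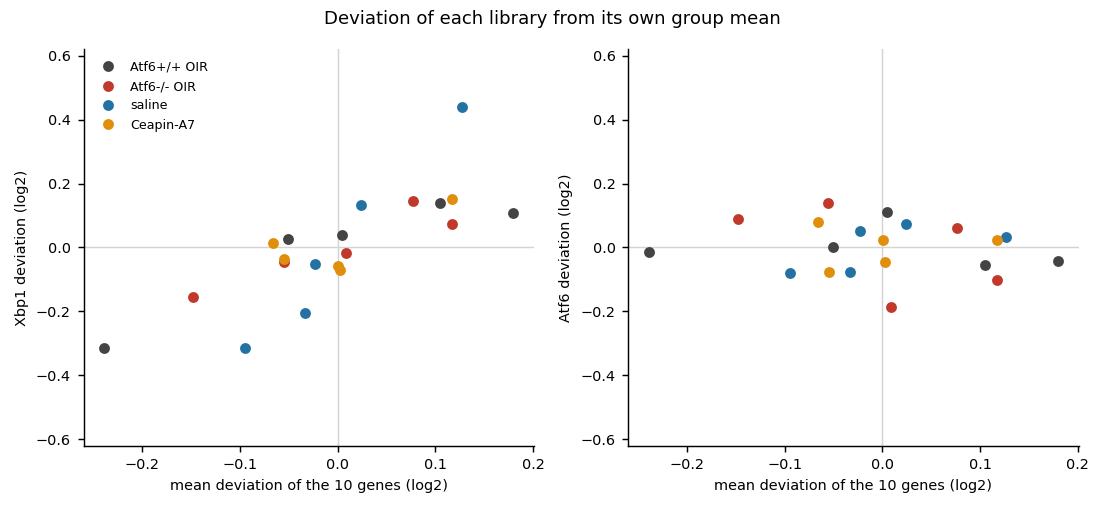
Deviation of Xbp1 (left) and Atf6 (right) in each library from its own group mean, on the log2 scale, against the mean deviation of the 10 genes. Each point is 1 of 20 libraries, coloured by group. Over all 20, r with the 10 genes is 0.802 for Xbp1 and -0.145 for Atf6, both read as RNA of the whole gene, which shows neither splicing nor protein cleavage. For Atf6 r is -0.339 in the OIR and 0.393 in the injected libraries.

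Other genes of the unfolded protein response give the setting. None of 13 other ER folding genes passed the adjusted threshold in limma in either experiment. In the OIR retinas 10 of the 13 had a log2 fold change above 0 (median 0.07), the opposite side from most of the 10 genes, and Dnajb9 was the only one with an unadjusted p under the threshold (0.19; adjusted p = 0.362). Next in that list came Dnajc10 (0.16; adjusted p = 0.461) and the cyclophilin Ppib (0.13; adjusted p = 0.467). After Ceapin-A7 8 of the 13 were below 0 (median -0.03), with the BiP exchange factor Sil1 at 0.24 (unadjusted p = 0.00111), the oxidase Ero1a at -0.18 (unadjusted p = 0.05) and Pdia5 at 0.14 (unadjusted p = 0.0701). All 3 had adjusted p-values between 0.472 and 0.492.

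Of 10 further ATF6 target genes outside folding, 7 were below 0 in the OIR retinas (median -0.07) and 7 after Ceapin-A7 (median -0.11), and none passed the adjusted threshold. Derl3, an ER-associated degradation factor, read 2.16, 1.86, 1.92, 1.79 and 1.55 FPKM in the Atf6+/+ and 1.03, 1.02, 1.1, 0.92 and 1.36 FPKM in the Atf6-/- libraries. Every knockout library was below every wild-type library, for a log2 fold change of -0.71 (95% interval -0.996 to -0.42; unadjusted p = 0.000165, adjusted p = 0.162). It was the only one of the 10 without overlap there after scaling, against 1.78% of all genes. After Ceapin-A7 the groups of 1 of the 10 were also free of overlap, with a lower level, against 1.47% of all genes. Selenos (0.21; adjusted p = 0.374) and Xbp1 (-0.18; adjusted p = 0.408) came next. After Ceapin-A7 the 3 leading genes were Sel1l at -0.10, the calcium pump Atp2a2 at -0.12 and Selenos at 0.15, with adjusted p-values from 0.472 to 0.492.

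The 6 sensors and ATF6 proteases had medians of -0.0089 and -0.034 in the OIR and injected retinas and no call. Mbtps2, the site-2 protease, was at 0.18 in the Atf6-/- retinas (unadjusted p = 0.0436), with Eif2ak3 at -0.11 and Atf6b at -0.17 behind it, and Ern1 was at -0.15 after Ceapin-A7 (unadjusted p = 0.0323), with Mbtps1 at 0.08 and Atf6b at -0.06. The 10 PERK and ATF4 targets had log2 fold changes below 0 in 9 cases in the knockout (median -0.23) and in 10 after Ceapin-A7 (median -0.35), with no call. Ddit3, which encodes CHOP, was at -0.28 in the knockout (adjusted p = 0.357), followed by Trib3 at -0.24 and Sesn2 at -0.37. After Ceapin-A7 Atf3 was at -1.31, Atf5 at -0.99 and Sesn2 at -0.33, with adjusted p-values of 0.472 to 0.474. Saline replicates 4 and 5, which were high for Hspa5 and Manf, read 28.6 and 20.7 FPKM for Atf3 where the other 3 saline libraries read 4.86 to 6.40. Of the 8 cytosolic heat shock genes 6 were below 0 in each experiment (medians -0.09 and -0.12) with no call. They were led by Hspb1 (-0.50; adjusted p = 0.362), Dnajb1 (-0.17) and Hsp90aa1 (0.17) in the knockout and by Hspa1b (-0.49; adjusted p = 0.48), Dnajb1 (-0.15) and Hspa1a (-0.30) after Ceapin-A7.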

How the data were processed

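Retinal RNA was sequenced as strand-specific mRNA libraries. The authors aligned reads to mouse build GRCm39 with HISAT2 2.0.4 and estimated gene expression with RSEM 1.2.18, and tested it with DESeq2 1.4.5, as their processing notes give them. They deposited FPKM to 2 decimals in a table per group, so the counts and the depth behind a value are unknown. No step of a single fragment could be read from the low values, and the number of libraries limits the precision.

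Within an experiment the libraries were scaled by median of ratios, and the values were tested as log2(FPKM + 0.1) with limma 3.58.1 in R 4.3.3, for genes with a mean of at least 0.1 FPKM, with Benjamini-Hochberg adjustment over all genes tested. Fold changes are on that scale, and intervals are 95%. The Atf6-/- and Ceapin-A7 comparisons used their own 10 libraries. The difference of effects and the comparison of controls used all 20. Scripts were tested on simulated data. The members and all gene lists were chosen with earlier results of these data known. Genes named beside the 10 members are Atf6, the 3 of each list with the smallest p in each experiment and the 5 most correlated with the members. Hspa8 and Hsph1 are named as the listed genes next in that correlation. GC content came from GENCODE transcripts of another build (GRCm38), joined by symbol. Alternatives were other pseudocounts (1 and 0.01), filters (none, or a mean above 1 FPKM) and scalings (FPKM as deposited, TPM and quantile), library weights, a replicate block, a GC correction, a fit of all 20 libraries and leaving out each library.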

Additional observations from a re-analysis of the deposited data

Results flagged for a closer look

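In the deposited values, Pdia4 in the Atf6-/- OIR group had a library far from the others. Replicate 5 read 42.2 FPKM while the other 4 lay between 46.4 and 47.3 FPKM. The gap took 0.826 of the range against a critical value of 0.71 for 5 libraries. After scaling between libraries, replicate 5 was at 44.6 FPKM and the other 4 at 45.4 to 47.5 FPKM, so the flag rests on the deposited scale. Pdia4 in that group was the only 1 flagged of 40 combinations of gene and group, where chance alone gives about 1 in 20.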

How the results depend on the processing

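No result on the 10 genes passed the adjusted threshold in the knockout or inhibitor comparisons under any alternative except the library weights, which called 2 genes in the knockout comparison. The number of the 10 at an unadjusted p of 0.05 or less in limma was 1 in the knockout comparison. There 2002 of all 15704 genes passed. It was 3 with FPKM as deposited (1906 of all genes), 5 with TPM (1840) and 5 with quantile normalization (2028). With library weights it was 6 (5750 of all genes) and with the GC correction 4 (1612). A mean above 1 FPKM gave 3 (1716 of 13060 genes), and the fit of all 20 libraries gave 4 (2728 of 15628). For Ceapin-A7 the number of the 10 was 1 (1596 of all 15408 genes). It was 2 with TPM (1699), quantile normalization (1594) or the GC correction (1694), and 0 in the fit of all 20 (1357 of 15628). For the difference of effects it was 0 (1437 of all 15628 genes), 3 with library weights (3800) and 1 with the GC correction (1256). With a replicate block it was 2 in the knockout (1967 of all 15704 genes) and 0 in the Ceapin-A7 comparison (1606 of 15408). Replicate numbers did not pair the samples: correlations of the deviations of same-numbered libraries ran from -0.258 to 0.21 in the OIR and from -0.217 to 0.31 in the injection experiment, no library of the OIR experiment correlated best with its own number and 1 of the injection experiment did. The block changed no adjusted call of the 10 genes. Leaving out each library gave 0 to 0 called and 1 to 5 at the unadjusted threshold in the knockout, 0 to 0 and 1 to 2 for Ceapin-A7, 0 to 0 and 0 to 1 for the difference of effects, and 6 to 8 and 7 to 8 for the controls. The share of all genes at the unadjusted threshold without each library is not given here. Log2 fold changes turned sign when single libraries were left out for Manf in the knockout (-0.013 to 0.126), for Dnajb11 (-0.0244 to 0.00884) and Manf (-0.0811 to 0.00965) after Ceapin-A7, and for Pdia6 in the difference of effects (-0.0392 to 0.0936). Genes called in all were 5 in the knockout comparison, 9 without a filter, 2772 with library weights, 8 with the GC correction and 11 in the fit of all 20. For the difference of effects they were 5, 744 with library weights and 3 with the block, and for Ceapin-A7 0, and 1 in the fit of all 20. Among genes at the unadjusted threshold after Ceapin-A7 the share that was higher was 48.6%, and 26.8% in TPM. For the difference of effects it was 58.7%, and 39.8% with FPKM as deposited. Depth is unknown, so the error of low genes such as Sdf2l1 is judged from the spread between libraries alone. The cause of these changes was not tested.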

Other observations

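The 43 genes other than the 10 members whose promoter window held an ERSE or ERSE-II match were looked at after the values were seen, so their numbers are a description. In the OIR comparison 25 of them were tested, 17 had a log2 fold change above 0 and their median was 0.05. After Ceapin-A7 24 were tested, 15 were below 0 and the median was -0.02. None passed the adjusted threshold in limma in either comparison, and at an unadjusted p of 0.05 or less there were 3 higher and 1 lower of the 25 in the OIR comparison (12.7% of all genes passed) and 0 higher and 4 lower of the 24 after Ceapin-A7 (10.4% of all genes passed).

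The spread within groups was set beside the levels, also after the values were seen and with no test. In the OIR experiment 6 of the 10 members had a smaller SD of log2 values in the Atf6-/- than in the Atf6+/+ libraries, against 46.9% of all genes. Hspa5 had an SD of 0.0582 in the Atf6-/- and 0.206 in the Atf6+/+ libraries, and Pdia4 0.0363 and 0.139, while Hyou1 went the other way with 0.261 and 0.157. In the injection experiment 6 of the 10 had a smaller SD after Ceapin-A7, against 70.4% of all genes. Hspa5 had 0.118 after Ceapin-A7 and 0.242 after saline, where replicates 4 and 5 were high.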
